A study of Homo sapiens with 6 samples.

Results

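The laminin, collagen and integrin genes were examined in RNA-seq of K562 cells, which were derived from human chronic myeloid leukemia, after inhibition of the histone methyltransferase EZH2. The genes were chosen by their names: protein-coding GENCODE genes on GRCh38 whose symbol is that of a laminin chain, a collagen chain or an integrin alpha or beta subunit, without *ITGA2B* and *ITGB3*, the platelet integrin pair. This rule took 80 of the 60671 genes in the count files and used no measured value. It gave 12 laminins, 44 collagens and 24 integrins. All 6 libraries came from a single K562 clone that carries the doxycycline-inducible fusion Flag-NLS-M.CviPI-Lamin-B1, a GpC methyltransferase attached to a nuclear lamina protein. The 3 EZH2i libraries came from separate cultures that received 1 µM GSK343, an inhibitor of EZH2, for 72 hours, and the 3 DMSO libraries from separate cultures that received 0.1% DMSO for the same time. Both groups were given 1 µg/mL doxycycline during the final 24 hours, so the fusion was induced in the controls as well, and each group represents 1 clone of 1 cell line.

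Laminins are cross-shaped trimers of an alpha, a beta and a gamma chain that polymerize in the basement membrane. Collagens are triple helices, some of which assemble into fibrils and others into networks, filaments or coats on fibrils. Integrins are heterodimers of an alpha and a beta subunit that bind these proteins at the cell surface and connect them to actin. K562 cells grow in suspension, and blood cells use integrins mainly to adhere to other cells and to vessel walls. EZH2 is the catalytic subunit of PRC2, which places the repressive mark H3K27me3, and the comparison asks which of these genes had another transcript level when EZH2 was inhibited.

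Between 6327544 and 8987768 reads per library fell on genes, with medians of 8711246 in DMSO and 7273739 in EZH2i. The libraries were made with a 3′ mRNA kit, which places reads near the polyadenylated end, so a read number is not divided by gene length. Changes in level are compared between libraries. Where read numbers of different genes stand side by side, they are given as counts and not read as a comparison of levels. CPM is a count scaled to 1000000 reads on the genes that passed the expression filter, after correction by the library's TMM factor. RPM is a count scaled to 1000000 reads on all genes, without that factor. Erythroid and K562 markers summed to 858 to 1014 RPM in DMSO and 1005 to 1082 RPM in EZH2i, with 8 of 9 markers above 3 reads in every library. Within this list *HBZ* and *HBG2* were higher in EZH2i, with log2 fold changes of 1.15 and 0.58 (edgeR, adjusted p = 6.14e-05 and 0.0251). The other tested markers of the list were not called. The 5 stromal markers summed to at most 0.445 RPM in DMSO and 0.962 RPM in EZH2i, and *LUM* and *THY1* had 0 reads in all libraries. *VWF*, *TEK* and *KDR* of the 5 endothelial markers, *PPBP*, *PF4* and *GP9* of the 6 megakaryocyte markers and *KRT5* of the 4 epithelial markers were at 0 as well. Other genes of these lists did have reads in every library: *PECAM1* 108 to 165, *EPCAM* 427 to 703 and the platelet integrin genes *ITGA2B* and *ITGB3* 4 to 14 and 6 to 17. The endothelial, epithelial and megakaryocyte sums were 12.97 to 19.4, 71.4 to 80.7 and 2.87 to 3.23 RPM in DMSO and 15.6 to 19.4, 61.8 to 66.9 and 2.02 to 2.89 RPM in EZH2i. These are bulk libraries, in which fewer cells expressing a gene and less RNA per cell cannot be told apart.

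Upon EZH2 inhibition, 6 laminin, collagen and integrin genes rose and none fell. The genes that rose were the laminin chains *LAMC1* and *LAMB1*, the collagen chains *COL1A1*, *COL14A1* and *COL9A1*, and the integrin subunit *ITGB2*. Of the 80 genes, 23 had enough reads to be tested and 57 lay below the expression filter. The 6 called genes were 26.1% of the 23 tested, while 3.34% of all 12364 genes tested were called higher (edgeR's quasi-likelihood test, adjusted p under 0.05). The count of 0 lower genes stood beside 0.922% of all genes tested. At an unadjusted p under 0.05, 9 of the 23 were higher and 1, *LAMA5*, was lower, where 10.9% and 8.21% of all genes tested were, and DESeq2 and limma-voom also called 0 lower. The median log2 fold change was 0.21 over the 23 genes and -0.0002 over all genes tested, and 15 of the 23 values (65.2%) were above 0, as were 6178 of all 12364. Every EZH2i library lay above every DMSO library in 8 of the 23 genes and below in 1, where 13.3% and 11.1% of all genes tested did so. A gene that passed the filter only through reads in EZH2i had to be higher there, so these shares describe the genes tested and not all 80. Of the called genes, *LAMC1* and *COL9A1* had under 10 reads in every DMSO library and passed through EZH2i. With 10 reads required in every library, 2 of 16 were called, *ITGB2* and *LAMB1*, and the median was 0.1092. The share of all genes called under that stricter filter is not given, so the 2 of 16 has no background beside it. The median was 0.5431 without the filter, over 65 genes, and 0.3523 without DMSO replicate 3. No median of all genes without the filter stands beside the first value. Protein-coding genes below the filter were also higher in EZH2i as a pool, at a ratio of 1.58. By family, 2 of 5 tested laminins, 3 of 9 collagens and 1 of 9 integrins were called.

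**Figure D1:**
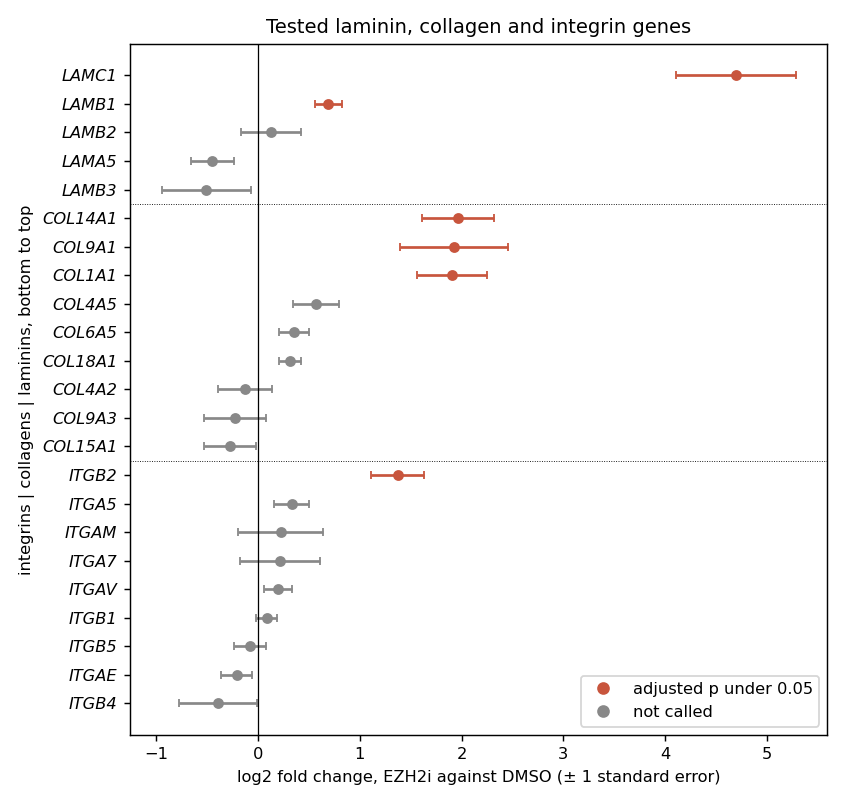
Log2 fold change between EZH2i and DMSO (horizontal axis) of the 23 laminin, collagen and integrin genes tested, with bars of 1 standard error from edgeR's fit over 3 libraries per group. The 6 called genes (orange) lie between 0.69 for *LAMB1* and 4.69 for *LAMC1*, and the 17 others (gray) lie between -0.51 and 0.57.

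Among the laminins, a gamma and a beta chain rose. *LAMC1*, the gamma chain of most laminin trimers, lies on chromosome 1 at chr1:183023420-183145592 on the plus strand. It had 0, 1 and 2 reads in DMSO replicates 1, 2 and 3 and 35, 25 and 22 reads in EZH2i replicates 1, 2 and 3. The gene was therefore at or near 0 in each control and detected in each treated culture, at 3.68 ± 0.92 CPM (SD, n = 3) after 0.115 ± 0.114 CPM. The ratio of the pooled RPM was 29.7, with a 95% counting interval from 9.81 to 147, since the 3 DMSO reads bound it weakly. The fitted log2 fold change was 4.69 ± 0.59 (SE, adjusted p = 0.000291), a size that depends on the prior count of the fit.

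*LAMB1*, the beta chain that pairs with *LAMC1* in many laminins, lies at chr7:107923799-108003213 on the minus strand. Its levels were 36.8, 40.1 and 30.2 CPM in DMSO and 62.9, 51.7 and 58.3 CPM in EZH2i, so the groups did not overlap. The log2 fold change was 0.69 ± 0.13 (SE, adjusted p = 0.00578), a rise of 1.61-fold from a level already well detected in the controls. Exons of *LAMB1* overlap those of *DLD* on the other strand. The log2 fold change of *DLD* was -0.23 (adjusted p = 0.214), opposite in sign to that of *LAMB1*, and the strand setting of the counting is not given in the sources used here.

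The other laminin chains tested did not pass the threshold. *LAMA5*, an alpha chain of basement membranes and the lone alpha chain tested, had 9.23, 7.84 and 9.42 CPM in DMSO and 5.69, 7.19 and 6.45 CPM in EZH2i. All EZH2i libraries were below all DMSO libraries, and the log2 fold change was -0.45 ± 0.21 (SE, adjusted p = 0.252). *LAMB3*, a chain of epithelial laminin, had 1.25, 2.02 and 1.48 CPM in DMSO and 0.677, 1.39 and 1.29 CPM in EZH2i, with overlapping groups and a log2 fold change of -0.51 ± 0.44 (SE, adjusted p = 0.578). For *LAMB2*, found at neuromuscular junctions and in the kidney filter, the log2 fold change was 0.13 (adjusted p = 0.859).

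The other laminin chains named here had too few reads to test. *LAMA4*, an alpha chain of vessel walls, had 2, 2 and 3 reads in DMSO and 5, 9 and 8 in EZH2i, a pooled ratio of 3.42 with a 95% counting interval from 1.41 to 9.46, and it was not called without the filter (adjusted p = 0.318) or with DESeq2 (0.432). *LAMA2*, an alpha chain of muscle basement membranes, had 6, 7 and 5 reads and 5, 6 and 6 reads, a ratio of 1.03 (0.497 to 2.11). The gamma chain *LAMC3* never exceeded 2 reads in a library, and the alpha chain *LAMA3* never exceeded 1. *LAMA1* and *LAMB4* had 0 reads in all 6 libraries.

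The sequence before the start of *LAMC1* and *LAMB1* is shown because these chains of the same trimers rose together, and that of *LAMB4* because the gene lies 20.3 kb from *LAMB1*, has the same orientation and had 0 reads. Each line gives the 250 bases upstream of the RefSeq start in GRCh38.p14, 5′ to 3′ on the gene's strand, with each CG dinucleotide in capitals. The coordinates are chr1:183023170-183023419 on the plus strand for *LAMC1*, chr7:108003162-108003411 on the minus strand for *LAMB1* and chr7:108130362-108130611 on the minus strand for *LAMB4*.
*LAMC1*: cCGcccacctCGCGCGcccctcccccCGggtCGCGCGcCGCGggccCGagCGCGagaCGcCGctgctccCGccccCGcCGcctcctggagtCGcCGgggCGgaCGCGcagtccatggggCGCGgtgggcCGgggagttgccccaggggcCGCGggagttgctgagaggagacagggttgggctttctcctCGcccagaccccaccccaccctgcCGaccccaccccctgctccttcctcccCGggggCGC
*LAMB1*: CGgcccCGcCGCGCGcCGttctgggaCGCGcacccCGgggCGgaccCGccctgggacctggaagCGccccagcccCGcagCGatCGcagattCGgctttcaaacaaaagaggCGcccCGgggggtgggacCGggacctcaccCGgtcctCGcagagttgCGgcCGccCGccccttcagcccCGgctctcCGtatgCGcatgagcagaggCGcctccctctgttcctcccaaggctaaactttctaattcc
*LAMB4*: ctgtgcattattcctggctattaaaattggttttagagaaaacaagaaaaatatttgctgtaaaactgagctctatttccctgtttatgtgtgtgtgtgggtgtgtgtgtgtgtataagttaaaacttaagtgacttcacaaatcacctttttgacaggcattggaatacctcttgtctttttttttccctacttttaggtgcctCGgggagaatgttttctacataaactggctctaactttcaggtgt
The stretches of *LAMC1* and *LAMB1* hold 32 and 28 CG dinucleotides, and that of *LAMB4* holds 1.

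The 3 collagen genes that rose belong to fibrils or to their coats. *COL1A1*, the main chain of type I collagen in bone and skin, lies at chr17:50184101-50201632 on the minus strand. It had 8, 11 and 19 reads in DMSO and 30, 49 and 55 reads in EZH2i. These are 1.25, 1.31 and 2.16 CPM against 4.06, 6.18 and 7.88 CPM, without overlap, and the log2 fold change was 1.91 ± 0.35 (SE, adjusted p = 0.00424). Its partner chain *COL1A2* lay below the filter, with 0, 2 and 2 reads in DMSO and 5, 3 and 3 in EZH2i, a ratio of 2.99 (95% counting interval 0.885 to 12.9). An unnamed gene, ENSG00000249406, overlaps exons of *COL1A1* on the other strand and had 2, 1 and 4 reads in DMSO and 2, 13 and 7 in EZH2i, so it held fewer reads than *COL1A1* in every library.

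*COL14A1*, a fibril-associated collagen of tendon and skin, had 10, 11 and 7 reads in DMSO and 42, 36 and 27 in EZH2i. Its level went from 1.22 ± 0.39 CPM to 4.70 ± 0.92 CPM (SD, n = 3), with a log2 fold change of 1.96 ± 0.35 (SE, adjusted p = 0.00413). *COL9A1*, a fibril-associated collagen of cartilage, lies at chr6:70216040-70303084 on the minus strand and had 4, 1 and 7 reads in DMSO and 17, 12 and 15 in EZH2i. The groups did not overlap and the log2 fold change was 1.93 ± 0.53 (SE, adjusted p = 0.0483), just inside the threshold. This call was lost with DESeq2 (adjusted p = 0.148) and whenever any 1 of the 6 libraries was left out (adjusted p from 0.0586 to 0.2003), with the direction kept. The other type IX chains were not called. The log2 fold change of *COL9A3* was -0.23 (adjusted p = 0.74), and *COL9A2* had 3, 8 and 3 reads in DMSO and 13, 2 and 2 in EZH2i.

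**Figure D2:**
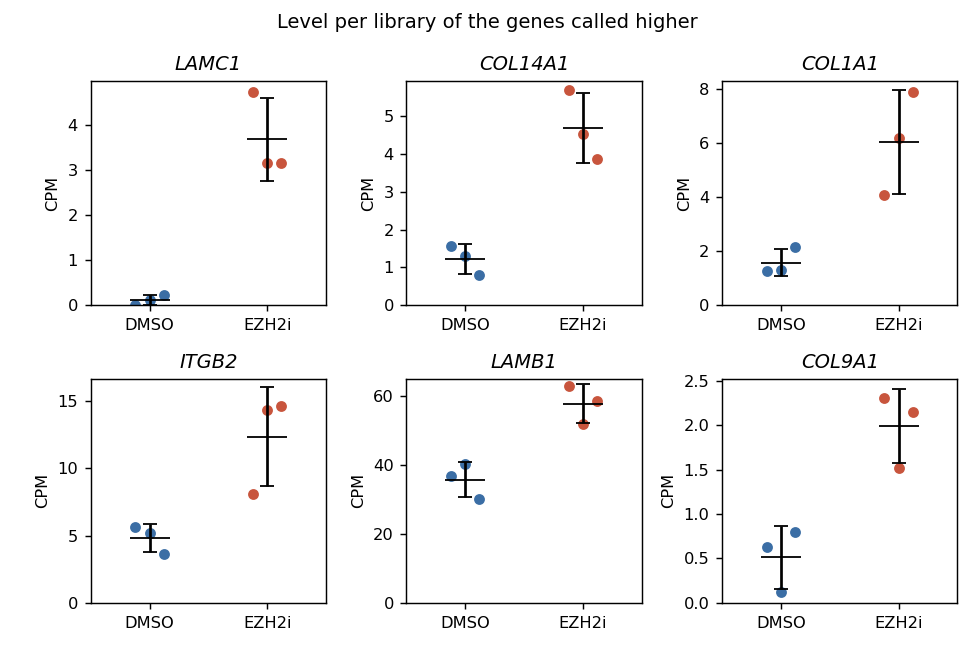
Level in CPM (vertical axes starting at 0, scaled separately) of the 6 genes called higher, with 1 point per library and the mean ± SD of 3 libraries per group in black. In each panel all EZH2i libraries (orange) lie above all DMSO libraries (blue); *LAMC1* rises from 0.115 to 3.68 CPM on average and *LAMB1* from 35.7 to 57.6 CPM.

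The remaining 6 collagen genes tested kept adjusted p-values over 0.05. *COL4A5*, a network-forming chain of basement membranes, had 6.73, 4.99 and 5.56 CPM in DMSO and 8.80, 6.94 and 9.74 CPM in EZH2i, without overlap, and a log2 fold change of 0.57 ± 0.23 (SE, adjusted p = 0.172). *COL6A5*, a chain of beaded filaments, had 18.5, 19.95 and 23.3 CPM in DMSO and 27.5, 28.4 and 23.1 CPM in EZH2i. Its level in EZH2i replicate 3 lay just under that in DMSO replicate 3, and the log2 fold change was 0.35 ± 0.15 (SE, adjusted p = 0.191). The log2 fold change of *COL18A1*, a multiplexin that carries heparan sulfate, was 0.31 (adjusted p = 0.119), that of the other multiplexin *COL15A1* was -0.27 (adjusted p = 0.612) and that of the network chain *COL4A2* was -0.13 (adjusted p = 0.845).

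Below the filter, and among genes with reads in DMSO, the highest pooled ratio was that of a type VI collagen chain, a component of beaded filaments. *COL6A1* had 0, 1 and 0 reads in DMSO and 14, 3 and 17 in EZH2i, a pooled ratio of 36.9 with a 95% counting interval from 6.197 to 1501. Its neighbor *COL6A2*, 93.1 kb away on chromosome 21 with the same orientation, had 0, 2 and 1 reads in DMSO and 12, 7 and 4 in EZH2i, a ratio of 8.33 (2.52 to 43.3), and it was not called without the filter (adjusted p = 0.05103) and had no adjusted p with DESeq2. Both chains were at or near 0 in the controls and had at least 3 reads in each treated library. *COL6A1* was not tested in the main fit but was called higher with DESeq2 (adjusted p = 0.0221), in edgeR without the filter (0.000155) and in edgeR without EZH2i replicate 2 (0.00226), the treated library with its fewest reads. It was not called without DMSO replicate 1, 2 or 3 (0.0697, 0.0536 and 0.0742). Their partner *COL6A3*, the chain that completes the common type VI trimer, had 0, 3 and 1 reads in DMSO and 2, 1 and 0 in EZH2i. *COL6A6* had 1, 4 and 1 reads in DMSO and 8, 8 and 3 in EZH2i, a ratio of 3.44 (1.32 to 10.5), with overlapping groups and no call without the filter (adjusted p = 0.398).

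Other collagens below the filter were sparse in both groups. *COL4A6* had 0, 9 and 5 reads in DMSO and 5, 12 and 8 in EZH2i. *COL11A2* had 1, 2 and 3 and then 3, 8 and 0, and *COL24A1* had 2, 3 and 1 and then 0, 0 and 5, so that a single library held most of the EZH2i reads of each. *COL25A1* had 0 reads in each DMSO library and 4, 0 and 3 in EZH2i, so the groups overlapped at 0.

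The upstream sequences of *COL9A1* and *COL6A2* are shown as a called gene whose outermost start has few CG dinucleotides and as a gene near 0 in DMSO with many, in the same layout as the laminins. They lie at chr6:70303085-70303334 on the minus strand and at chr21:46097862-46098111 on the plus strand. The third line gives the 126 bases between the RefSeq starts of the divergent genes *COL4A1* and *COL4A2*, chr13:110307158-110307283 on the plus strand, because reads were found on 1 gene of this pair and none on the other.
*COL9A1*: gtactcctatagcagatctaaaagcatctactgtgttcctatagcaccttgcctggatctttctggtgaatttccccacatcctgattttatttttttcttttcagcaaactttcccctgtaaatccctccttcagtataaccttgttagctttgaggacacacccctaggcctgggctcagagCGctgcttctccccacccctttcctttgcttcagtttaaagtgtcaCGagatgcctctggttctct
*COL6A2*: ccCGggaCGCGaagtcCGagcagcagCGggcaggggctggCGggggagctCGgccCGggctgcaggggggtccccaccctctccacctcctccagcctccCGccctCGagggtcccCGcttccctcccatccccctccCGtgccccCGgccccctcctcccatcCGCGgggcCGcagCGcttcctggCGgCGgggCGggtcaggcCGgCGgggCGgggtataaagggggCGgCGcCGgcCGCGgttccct
COL4A1 and COL4A2: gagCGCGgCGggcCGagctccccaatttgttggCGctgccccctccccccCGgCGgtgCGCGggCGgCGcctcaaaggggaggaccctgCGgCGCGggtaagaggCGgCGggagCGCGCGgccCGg
They hold 2, 28 and 20 CG dinucleotides. RefSeq lists another start for *COL9A1*, whose window of 300 bases holds 16 CG dinucleotides against 3 at the outermost start used here.

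Among the integrins, the beta subunit of leukocytes rose while the subunits with the most reads kept adjusted p-values over 0.05. *ITGB2*, which pairs with *ITGAL*, *ITGAM*, *ITGAX* or *ITGAD* in the leukocyte integrins, lies at chr21:44885953-44931989 on the minus strand and had 36, 44 and 32 reads in DMSO and 60, 114 and 102 in EZH2i. Its levels were 5.63, 5.22 and 3.63 CPM against 8.13, 14.4 and 14.6 CPM, with EZH2i replicate 1 the lowest of its group and still above every control. The log2 fold change was 1.37 ± 0.26 (SE, adjusted p = 0.00548). *ITGB2-AS1* overlaps its exons on the opposite strand and had 0, 3 and 2 reads in DMSO and 6, 9 and 10 in EZH2i.

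Of the alpha partners of *ITGB2*, *ITGAM* was tested, with 9, 9 and 10 reads in DMSO and 9, 11 and 11 in EZH2i and a log2 fold change of 0.22 ± 0.42 (SE, adjusted p = 0.825). *ITGAX* had 0, 4 and 1 reads and then 5, 6 and 9, without overlap, a ratio of 4.35 (95% counting interval 1.58 to 14.8). It was not called in edgeR without the filter (adjusted p = 0.243). *ITGAL* had at most 3 reads in any library and *ITGAD* had 0 in all. The 4 monocyte markers, of which *ITGAM* is 1, summed to 12.02 to 18.02 RPM in DMSO and 22.1 to 24.9 RPM in EZH2i. Most of this sum was *LYZ*, lysozyme, with 105, 120 and 97 reads in DMSO and 170, 164 and 140 in EZH2i and a log2 fold change of 0.62 (adjusted p = 0.0426). *CD14* had at most 2 reads in a library, and *CSF1R* had 0 in all libraries. The part of these markers in the result for *ITGB2* was not tested.

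*ITGB7*, the beta subunit of lymphocyte homing integrins, lay below the filter with 1, 2 and 3 reads in DMSO and 11, 8 and 12 in EZH2i. The groups did not overlap and the pooled ratio was 5.61, with a 95% counting interval from 2.31 to 16.5. It was called higher in edgeR without the filter (adjusted p = 0.0345) and without EZH2i replicate 2 (0.0387), and it was not called with DESeq2 (0.136) or without DMSO replicate 1, 2 or 3 (0.119, 0.1201 and 0.0781). Of its alpha partners, the log2 fold change of *ITGAE* was -0.21 (adjusted p = 0.48), and *ITGA4* had 1 read in all 6 libraries together. The lymphocyte markers summed to 75.4 to 98.2 RPM in DMSO and 79.0 to 91.0 RPM in EZH2i, and *MS4A1* had 0 reads throughout.

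None of the tested integrin subunits that bind fibronectin, vitronectin or laminin passed the threshold. *ITGB1*, the shared beta subunit of most matrix receptors, had 107, 103 and 110 CPM in DMSO and 115, 120 and 104 CPM in EZH2i, with overlapping groups and a log2 fold change of 0.08 ± 0.10 (SE, adjusted p = 0.712). The log2 fold changes of its alpha partners were 0.33 for the fibronectin receptor *ITGA5* (adjusted p = 0.311), 0.20 for *ITGAV* (adjusted p = 0.459) and 0.21 for the laminin receptor *ITGA7* (adjusted p = 0.822). For *ITGB5*, the partner of *ITGAV*, it was -0.08 (adjusted p = 0.826). *ITGB4*, which binds laminin in hemidesmosomes, had 2.66, 3.09 and 1.59 CPM in DMSO and 1.49, 1.64 and 2.44 CPM in EZH2i, a log2 fold change of -0.39 ± 0.38 (SE, adjusted p = 0.631). Other laminin receptors lay below the filter. *ITGA3* had 2, 3 and 4 reads in DMSO and 4, 8 and 8 in EZH2i, a ratio of 2.41 (95% counting interval 1.05 to 6.02). It was not called in edgeR without the filter (adjusted p = 0.582) or with DESeq2 (0.628). *ITGA6* had 1, 1 and 1 reads in DMSO and then 7, 3 and 1 in EZH2i. Of the 4 collagen-binding alpha subunits none was tested. *ITGA1* had 0 reads in each DMSO library and 0, 4 and 2 in EZH2i, with overlap at 0, and it shares exons with *PELO* on the same strand.

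**Figure D3:**
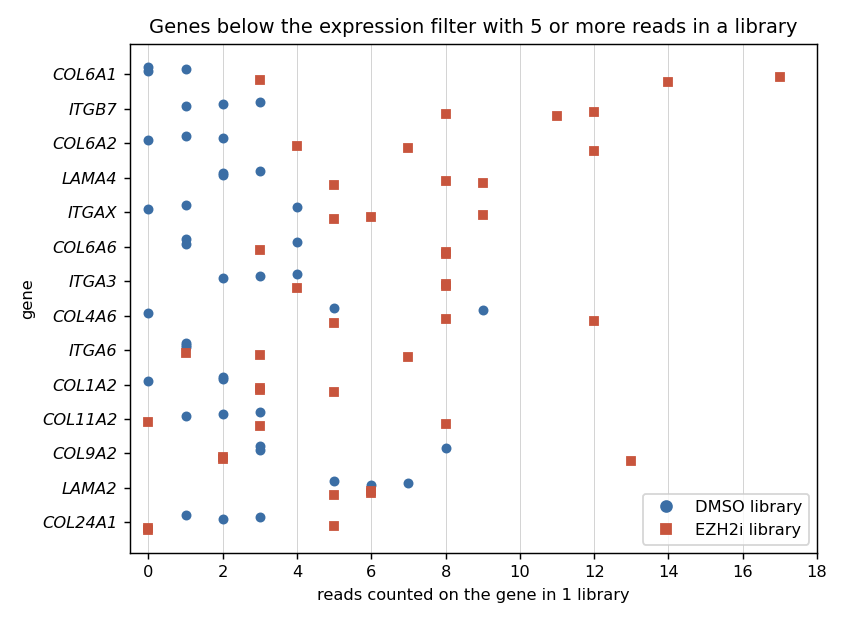
Reads counted on each gene in 1 library (horizontal axis) for the 14 laminin, collagen and integrin genes below the expression filter that had 5 or more reads in a library, with 3 DMSO libraries (blue circles) and 3 EZH2i libraries (orange squares) per gene. *COL6A1* lies at 0 to 1 reads in DMSO and at 3 to 17 in EZH2i, while *LAMA2* overlaps fully.

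The 57 genes below the filter were also described as a pool. Of these, 15 had 0 reads in all 6 libraries, 28 had reads but under 5 in each library, and 14 reached 5 reads in a library. Of the 14, the 2 called in edgeR without the filter were *COL6A1* and *ITGB7*, and the other 12 had adjusted p-values from 0.05103 to 0.9975, although some of their counting intervals, which leave out the spread between cultures, lie above 1. A count of 0 over a group allows up to 0.125 RPM in DMSO and 0.136 in EZH2i, for counting error only. Together they had 4.90, 7.46 and 5.01 RPM in DMSO and 17.2, 12.6 and 15.02 in EZH2i, a ratio of 2.54 from 141 and 329 reads. Without *COL6A1* and *COL6A2*, 137 and 272 reads gave a ratio of 2.16. The 9260 protein-coding genes below the filter rose as a pool too, from 803 to 870 RPM in DMSO to 1228 to 1388 in EZH2i, a ratio of 1.58. Of the 42 laminin, collagen and integrin genes with reads, 33 (78.6%) had a higher RPM in EZH2i, beside 70.3% of all such protein-coding genes. The share of reads that fell on no gene was 7.43% to 8.42% in DMSO and 8.13% to 12.7% in EZH2i, the highest in EZH2i replicate 3, and its part in these ratios was not tested. Without that library the ratio of the 57 genes was 2.53.

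Several of these genes lie next to each other, and read numbers of neighbors are given for 13 pairs within 200 kb. *COL4A1* and *COL4A2* are transcribed in opposite directions from overlapping promoter windows that share 226 bases. *COL4A2* had 33 to 65 reads in the 6 libraries and *COL4A1* had 0 in all. *COL4A6* and *COL4A5*, divergent genes with starts 341 bp apart on chromosome X, had 0 to 12 and 42 to 68 reads. *COL4A4* and *COL4A3*, 171 bp apart on chromosome 2, had at most 1 read each per library. *COL19A1*, whose end lies 3.57 kb from that of *COL9A1*, had 0 reads throughout.

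*ITGA3*, 93.6 kb from *COL1A1*, had at most 8 reads per library. *COL6A5* had 118 to 225 reads and its neighbor *COL6A6* 1 to 8. *ITGAM*, *ITGAX* and *ITGAD* follow each other on chromosome 16 and had 9 to 11, 0 to 9 and 0 reads. *COL3A1* had at most 1 read and *COL5A2* at most 3, with 3, 3 and 3 in DMSO and 0, 2 and 1 in EZH2i. *ITGA2*, 30.1 kb from *ITGA1*, had 0 reads. Both genes of a pair lay higher in every EZH2i library than in any DMSO library, in CPM, for *COL6A1* with *COL6A2* and for *ITGA3* with *COL1A1*. Among all genes tested, 13.3% lay higher in this way, and *COL6A1*, *COL6A2* and *ITGA3* were below the filter. *ITGA3* had 4 reads in both DMSO replicate 3 and EZH2i replicate 1, so their order rests on library scaling, and it was called in no fit.

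**Figure D4:**
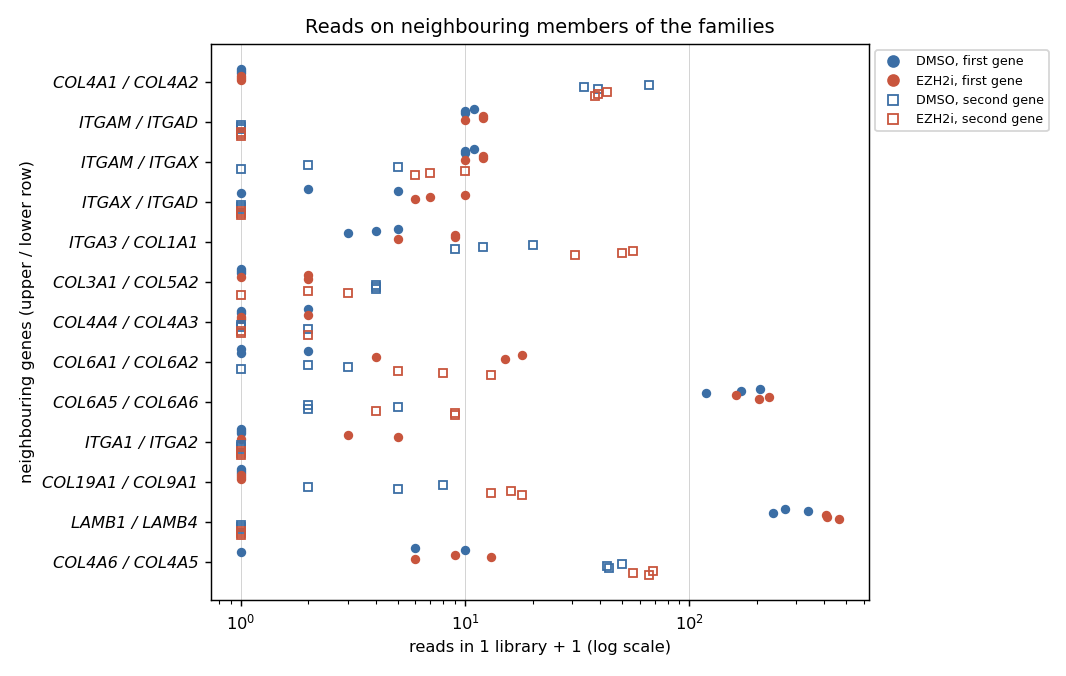
Reads in 1 library plus 1 (logarithmic horizontal axis) for 13 pairs of laminin, collagen or integrin genes that lie within 200 kb, with filled circles for the gene named first and open squares for the gene named second, in DMSO (blue) and EZH2i (orange). *LAMB1* lies further to the right in EZH2i while its neighbor *LAMB4* stays at 0 reads. *COL6A1* has 0 to 1 reads in DMSO and 3 to 17 in EZH2i, and *COL6A2*, which was called in no fit, has 0 to 2 and 4 to 12.

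The CG content of the promoters is given as a description. RefSeq promoters of 300 bases, 250 before and 50 after the start, were matched to 57 of the 80 genes. The median number of CG dinucleotides was 18 over these 57, 27 over the 9307 promoters of tested genes, 27 over the 319 promoters of genes called higher and 13 over all 27305 promoters. *LAMC1* and *LAMB1* had 41 and 35, more than 93.5% and 86.2% of all promoters, and *COL9A1* had 3 at its outermost start, more than 18.97%, and 16 at its other start, above the median of all promoters. *LAMA5*, which did not rise, had 41 like *LAMC1*. The GC box GGGCGG, searched on both strands, was found in 31 of the 57 promoters (54.4%), in 44.5% of all promoters and in 71.9% of the promoters of tested genes. The GATA motif AGATAA was found in 3 of 57 (5.26%), in 10.5% of all and in 4.86% of tested genes' promoters, and the AP-1 motif TGACTCA in 2 of 57 (3.51%), in 4.90% of all and in 2.73% of tested genes' promoters. Neither of the last was in the promoters of *LAMC1*, *LAMB1* or *COL9A1*, which says only that these letters were not in those windows.

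The genes that work with laminins, collagens and integrins were taken from lists of 94 genes, of which 56 were tested. Of these, 6 were called higher and 0 lower (edgeR, with 14 higher and 1 lower at an unadjusted p under 0.05, as were 10.9% and 8.21% of all genes tested, and with DESeq2 and limma-voom also calling 0 lower), and the median log2 fold change was 0.10. Over all genes tested 3.34% were called higher and 0.922% lower, with a median of -0.0002. The lists were chosen with earlier results of these data known. As with the members, a gene that passed the filter only through reads in EZH2i had to be higher there. These shares therefore describe the tested genes and are no test of the lists. Among 18 tested genes of collagen modification and processing, *LOXL2* and *LOXL4* rose, both lysyl oxidases that crosslink collagen. *LOXL2* had 1.41, 1.31 and 1.48 CPM in DMSO and 4.88, 6.18 and 5.01 CPM in EZH2i, a log2 fold change of 1.93 ± 0.31 (SE, adjusted p = 0.00188). *LOXL4* had 18.3, 22.9 and 18.3 CPM and then 41.9, 34.3 and 36.7 CPM, a log2 fold change of 0.92 ± 0.14 (SE, adjusted p = 0.0014). In both genes the groups lay well apart.

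Among the matrix receptors outside the integrins, 3 of 12 tested rose. *CD44*, the hyaluronan receptor, had 0.782, 1.78 and 2.16 CPM in DMSO and 7.04, 7.69 and 7.31 CPM in EZH2i, a log2 fold change of 2.16 ± 0.31 (SE, adjusted p = 0.000899). *BCAM*, which binds the laminin chain encoded by *LAMA5*, had 1.10, 0.712 and 0.681 CPM and then 5.15, 1.77 and 2.01 CPM, with EZH2i replicate 1 far above the others and a log2 fold change of 1.85 ± 0.49 (SE, adjusted p = 0.0414). *SDC1*, a heparan sulfate proteoglycan, had 5.01, 4.39 and 3.06 CPM and then 7.72, 7.44 and 8.59 CPM, a log2 fold change of 0.94 ± 0.24 (SE, adjusted p = 0.037). Of 24 tested genes of integrin activation and focal adhesions, the 1 called was *TLN1*, talin, which activates integrins from inside the cell, with 245, 226 and 262 CPM in DMSO, 323, 315 and 306 CPM in EZH2i and a log2 fold change of 0.37 ± 0.10 (SE, adjusted p = 0.0448). Of 22 other basement membrane and matrix genes, 2 were tested and not called, the heparan sulfate proteoglycans *AGRN* (log2 fold change 1.05, adjusted p = 0.221) and *HSPG2* (0.31, adjusted p = 0.166). Without any 1 of the DMSO libraries, 3 of these partner genes were called higher in place of 6, *CD44*, *LOXL2* and *LOXL4*. With at least 10 reads required in every library, 3 were called as well, but these were *LOXL4*, *SDC1* and *TLN1*. *CD44* and *LOXL2* were not tested under that filter. *CD44*, *LOXL2* and *LOXL4* kept the call whenever any of the 6 libraries was left out. The call of *SDC1* was lost in each of these 6 fits (adjusted p from 0.0519 to 0.139) and with DESeq2 (0.094). *BCAM* kept it in 2 of the 6 fits and lost it with DESeq2 (0.0845) and limma-voom (0.0798), and without EZH2i replicate 1 its log2 fold change was 1.20 (adjusted p = 0.2132). *TLN1* kept it in 1 of the 6 and lost it with the replicate block (0.0674) and without the filter (0.0526).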

How the data were processed

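RNA-seq libraries of 3 DMSO and 3 EZH2i cultures were used, grouped by their titles. The authors prepared them with a 3′ mRNA kit, aligned the reads to hg38 (STAR 2.6.0c in the submitters' processing notes), counted reads per gene with HTSeq 0.11.2 and deposited raw counts per library, without pooling. They also deposited a table of their own DESeq2 comparison, with a mean normalized count, log2 fold changes and p-values, which was not used.

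Lines of the count files without a gene were removed first. Genes held 63.6% to 67.9% of the listed reads. The test was edgeR's quasi-likelihood F test (edgeR 4.0.16, R 4.3.3, TMM, filterByExpr with a minimum count of 10, glmQLFit, glmQLFTest, two-sided, Benjamini-Hochberg over all 12364 genes tested, threshold 0.05). With 3 against 3, an exact permutation test of 1 gene cannot go below 0.10. The standard error is the log2 fold change divided by the square root of F. Pooled ratios carry exact 95% binomial counting intervals, which cover counting error only and assume reads that are independent molecules. Replicates differed beyond sampling noise (chi-square divided by its degrees of freedom was 4.56 to 12.7). In EZH2i the value was 10.8 and 12.7 for the pairs with replicate 1 and 4.56 for replicates 2 and 3. Such a spread cannot show that cultures were separate. The libraries count as separate because the paper describes separate cultures. The fits were tested on simulated data. DESeq2 1.42.0 and limma 3.58.1, other size factors and filters, a stricter threshold, a replicate block and leaving out each library were tried.

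Positions come from GENCODE release 44 on GRCh38, which matched 60401 of 60671 genes; the authors used an earlier Ensembl annotation of the same genome. Promoters come from RefSeq (GRCh38.p14), with the outermost start where several are listed. Members, gene lists and tests were chosen with earlier results of these data known. The rule for named genes was as follows. Every tested member is named. Called members and the 5 others of largest absolute log2 fold change are given per library. Members below the filter are named from 5 reads in a library or where a neighbor or partner chain is described, partner genes where called, and members within 200 kb as pairs. Values of 1 such gene are not given here. Single genes outside the rule were named after their values were seen.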

Additional observations from a re-analysis of the deposited data

How the results depend on the processing

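The calls of *LAMC1*, *COL14A1*, *COL1A1*, *ITGB2* and *LAMB1* held under every alternative in which they were tested. Requiring 10 reads in every library left 16 members to test and 2 called higher, *ITGB2* and *LAMB1*, since the others have fewer reads in DMSO. Members called higher numbered 8 without the filter and 5 to 7 when a library was left out, and 0 were called lower under every alternative. The median log2 fold change of the members was 0.3052 with DESeq2, 0.2209 with limma-voom, 0.2051 with relative log expression factors, 0.2278 with upper-quartile factors, 0.5431 without the filter and 0.1092 with 10 reads in every library, and between 0.2117 and 0.3523 when a library was left out. Partner genes called higher numbered 3 with 10 reads in every library, 3 at an adjusted p under 0.01 and 3 to 7 when a library was left out; 1, *ACTN4*, was called lower without the filter. Small changes turned sign when a library was left out: log2 fold changes ranged from -0.2566 to 0.1073 for *ITGB5* (positive without EZH2i replicate 1), from -0.3489 to 0.1137 for *COL4A2* (positive without DMSO replicate 3) and from -0.1106 to 0.309 for *LAMB2* (negative without DMSO replicate 1 or EZH2i replicate 2), none called; the cause was not tested. With the replicate block, 6 members were called higher, the same 6 genes, and the median was 0.2242; same-numbered libraries did not deviate together (correlations of -0.0511, -0.0175 and -0.017), so the numbers were not taken as pairs.

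Depth limits the 57 members below the filter and the size of the *LAMC1* change, whose controls held 3 reads. Genes with exons shared on either strand cannot be fully separated. The ratios of the pool of members below the filter without *COL6A1* and *COL6A2*, or without an EZH2i library (2.343 to 2.748), were chosen after seeing the data.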
